A study of Rattus norvegicus with 24 samples.

Results

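The 82 targets described here are the cytosolic ribosomal protein genes among the 19963 targets measured in each area. They were taken by name alone: every Rpl or Rps symbol with a number, the P stalk genes Rplp0, Rplp1 and Rplp2, and Rpsa and Fau, with the S6 kinase genes left out. The small subunit gave 33 of them and the large subunit 49. The animals were male Sprague-Dawley (SD) rats made diabetic with streptozotocin (STZ) at 5 weeks of age, and every group compared here carried that diabetes and a splinted full-thickness skin defect of 8 mm, taken at day 7. The wounds were labelled Sham, Gel (a hydrogel) or CuNZ@Gel (a gel whose composition the labels do not give, in a series titled for a nanozyme hydrogel). GeoMx spatial profiling releases indexed probe tags by light from areas chosen on a stained section, and 24 areas were measured, made up of Segment 1 and Segment 2 in each of 2 regions from 2 numbered specimens of each of the 3 treatments. The labels do not say whether a specimen is an animal or which antibodies marked the areas. They also do not say what separates Segment 1 from Segment 2, or what the region name "mac" stands for. The target symbols follow mouse naming although the animals were rats.

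A cytosolic ribosome is built from ribosomal RNA and about equimolar ribosomal proteins, and every cell that makes protein needs it. The small subunit decodes the messenger RNA and the large subunit joins the amino acids. The messenger RNAs of most ribosomal proteins start with a C followed by a run of pyrimidines, the TOP motif, through which mTORC1 signalling switches their translation together. Healing skin is a tissue of high protein synthesis, since fibroblasts and macrophages fill the defect with secreted matrix and signals.

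Transcription starts of the members are shown because they carry a sequence feature that many members share and that the choice by name did not use. Of the 82 members, 65 had a start of the same symbol in the RefSeq table of build GRCr8 (rat). The window searched was the 5 bases on each side of the listed start, on the strand of the gene only, and the pattern was a C followed by at least 4 pyrimidines (C or T). The C had to lie in the window, while its run could reach beyond it. Below, 15 bases before and 15 bases from the start on are printed 5′ to 3′, with the C and the pyrimidine run in capitals. Rps23, Rpl35a and Rpl10 are members that passed a test below, and Rplp0 and Rps18 are common reference genes. In Rpl38 and Rpl6 no C followed by such a run lies in the window. In Rpl38 a C with a pyrimidine run begins before the window and reaches into it, which the search did not count.
Rps23 (chr2:23814502-23814531, plus strand): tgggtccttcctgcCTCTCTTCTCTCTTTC
Rpl35a (chr11:81235007-81235036, minus strand): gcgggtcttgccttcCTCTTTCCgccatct
Rpl10 (chrX:157205835-157205864, plus strand): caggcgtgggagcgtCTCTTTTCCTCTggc
Rplp0 (chr12:46718376-46718405, minus strand): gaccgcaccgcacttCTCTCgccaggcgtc
Rps18 (chr20:4933730-4933759, plus strand): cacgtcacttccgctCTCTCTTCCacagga
Rpl38 (chr10:100200420-100200449, plus strand): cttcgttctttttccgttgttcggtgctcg
Rpl6 (chr12:41011676-41011705, minus strand): tatttttacatcactagatggcgggtgaaa
The run was found in 39 of the 65 matched members (60%), against 16.4% of the 21785 other protein-coding starts in the table and 17.8% of 4756 starts of other targets above background. A run does not mark the members by their level: it stood at 25 of 41 matched members that were above background in every area (61.0%) and at 14 of 24 of the others (58.3%). A match is a description of these letters, and a window without one says nothing of the messenger RNA.

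Recovered totals ran from 86386 to 1476512 counts per area (median 340374), with 322155 to 1476512 in Segment 1 and 86386 to 688520 in Segment 2. The shallowest area (CuNZ@Gel specimen 1, region 1, Segment 2) had 46.9% of its targets at 1 count, and the highest negative probe (5.42) stood in Gel specimen 1, region 2, Segment 2. Results are given without these 2 areas where that changed a call. Of the skin's keratinocyte markers, 0 of 10 were above background in at least 4 areas, against 6 of 8 fibroblast and 7 of 10 macrophage markers, so no keratinocyte marker of the labelled skin was seen at that level. Fibroblast markers summed to 10465 to 32155 in Sham areas, 1922 to 11214 in Gel areas and 7199 to 12397 in CuNZ@Gel areas, and erythroid markers to 601 to 1806, 21.8 to 89.9 and 22.8 to 206. In these areas, fewer cells of a type and less RNA per cell cannot be told apart.

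The members fell into a large measured group and a smaller group at background. Background in an area was read from 1116 receptor targets of smell and pheromones as their 99th percentile, and it lay between 11.4 and 21.6 in scaled signal (median 14.3). Above it in all 24 areas stood 52 members (26 of each subunit), 15 members exceeded it in some areas, and 15 (11 of the large and 4 of the small subunit) in none. A level belongs to a target's own probe, so levels of different members are not read as amounts of RNA set against each other.

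Among the highest levels were those of Rpl41, Rps3a1, Rps26 and Rpl23a. Rpl41, which encodes a very short basic peptide of the large subunit, had a median signal of 693 over the areas, with 521 and 963 as the lowest and highest. Rps3a1 (a small subunit protein) had a median of 657 (496 to 873), Rps26, which lines the messenger RNA exit channel, 613 (359 to 906), and Rpl23a, at the exit of the peptide tunnel, 567 (396 to 765). These 4 targets stood in the upper end of everything measured, between percentiles 99.8 and 99.9 of mean log2 level over the 19728 targets kept. Behind the Rpl41 signal lay 170 to 2933 counts per area.

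The lowest levels belonged to Rpl24, Rpl14, Rpl10l, Rpl7a and Rpl36, and all 5 stayed below background in every area. Rpl24, a late-joining protein of the large subunit, had a median signal of 2.89 (1.36 to 5.66), or 1 to 13 counts per area. Rpl14 had a median of 3.07, Rpl10l 3.59, Rpl7a 4.09 and Rpl36 4.09. Rplp0, the protein that anchors the P stalk and a widely used reference gene, was also among the 15: its median signal was 6.98 (1.44 to 10.996), or 1 to 26 counts. The other P stalk members were measured throughout, Rplp1 with a median of 116 (52.1 to 153) and Rplp2 with 299 (221 to 382). A value at background gives no level, so the fold changes of these 15 members describe background as much as the gene. How well the probe of each target reads rat RNA was not tested.

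**Figure D1:**
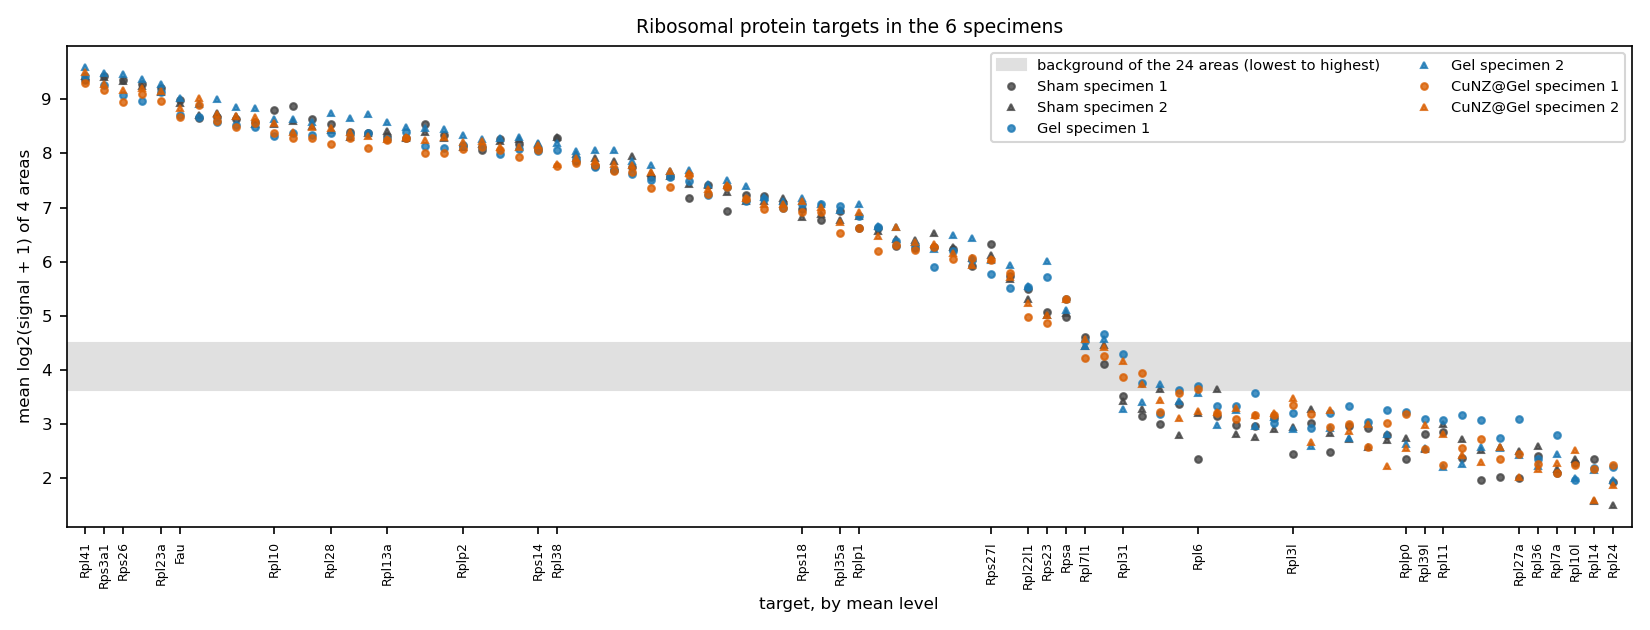
Mean log2(signal + 1) of 4 areas for each of the 82 ribosomal protein targets in the 6 specimens, ordered by mean level (names for some of those in the text), with colour for treatment and symbol for specimen number. The grey band spans the background of the 24 areas; the 6 specimens of a member lie close together on the left, where 52 members are above background in every area, and levels drop into the band from Rpl7l1 on.

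Among the reference genes, Rps18, a small subunit protein, had area signals of 88.3 to 187 in Sham (median 118), 105 to 189 in Gel (median 141) and 101 to 146 in CuNZ@Gel (median 137). Rpl13a, a large subunit protein, ran from 286 to 373 in Sham (median 334), from 279 to 458 in Gel (median 324) and from 273 to 372 in CuNZ@Gel (median 300.2). Fau, whose product is cleaved into a ubiquitin-like part and a small subunit protein, had medians of 499, 440 and 458. Rpsa, the small subunit protein also described as a laminin receptor precursor, was the lowest of the 52 at a mean log2 level of 5.18, with medians of 30.8, 38.0 and 40.2. In all 4 the areas of the 3 treatments overlapped.

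Of the members named after another ribosomal protein gene (the "-like" genes), 6 are described here, without Rpl32l, and they divided in the same way. Rps27l and Rpl22l1, which resemble Rps27 and Rpl22 and are expressed widely, were above background in all areas, with mean log2 levels of 6.05 and 5.35. Rpl7l1, known as a factor of large subunit assembly, exceeded background in 19 areas (4.47). Rpl3l, a muscle form of Rpl3, exceeded it in 1 area (3.05). Rpl10l and Rpl39l, forms best known from the testis, exceeded it in none (2.23 and 2.76). None of the 6 was called in any comparison below; ribosomal protein genes have many processed copies, and whether a probe also read one of those was not tested.

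The measured members varied little between specimens. The SD of the 6 specimen means, in log2 units, had a median of 0.14 over the 52 members always above background. For each of them, the median SD of the 100 other targets nearest in level was taken, and its median was 0.27. Of the 52, 51 had a smaller SD than their like-level targets. The steadiest was Rps14, a small subunit protein, at 0.062. The largest spreads among all 82 were those of Rpl6 (0.50), Rps23 (0.46), Rpl31 (0.41), Rpl27a (0.40) and Rpl11 (0.38); Rpl27a and Rpl11 were above background in no area, Rpl6 in 2 and Rpl31 in 11. Gel specimen 2 was the highest specimen in 35 of the 52 and CuNZ@Gel specimen 1 the lowest in 29.

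Gel against Sham asks what the hydrogel did to the wound, and a single member passed the test. limma on log2(value + 1), with the 4 areas of a specimen averaged, called 478 of 19728 targets (2.42%) at an adjusted p under 0.05, and among the 82 members it called Rps23. At an unadjusted p, 2 members fell under 0.05, against 12.1% of all targets. The median log2 change of the 52 measured members was 0.05, with 34 positive and 18 negative, and over all 82 it was 0.09, against 0.06 over all targets tested. Other abundant targets lay lower: the 1517 other targets at or above the level of the lowest of the 52 had a median change of -0.28, 14.6% of them were called, and the targets of like level had a median of -0.36. Both Gel specimens were above both Sham specimens in 23 members and below them in 6 (all targets: 23.6% and 17.2%). Among the 52 measured members the counts were 11 and 3, while 6.39% and 58.5% of the 1517 other abundant targets lay above and below. The 26 small subunit members of the 52 had a median change of 0.03 and the 26 large subunit members of 0.07.

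Rps23 encodes a small subunit protein at the decoding centre. Its signal in Sham areas was 22.4 at the lowest, 30.7 at the median and 47.0 at the highest. In Gel areas it was 46.3, 54.0 and 79.9, and in CuNZ@Gel areas 17.5, 33.3 and 45.0. All Gel areas were above all CuNZ@Gel areas, and the Gel and Sham areas overlapped in a narrow range, while the specimens of Gel did not overlap with those of Sham: the log2 means were 5.71 and 6.01 (Gel), 5.07 and 5.02 (Sham), and 4.87 and 5.01 (CuNZ@Gel). The specimen means of signal came to 33.0 ± 0.81 (Sham), 58.0 ± 9.49 (Gel) and 31.4 ± 1.65 (CuNZ@Gel; SD, n = 2). Rps23 rose by a log2 change of 0.82 in Gel against Sham (SE 0.20, adjusted p = 0.00539, limma). The call was lost without Sham specimen 1 (adjusted p = 0.0568), Sham specimen 2 (0.0750) or Gel specimen 2 (0.103), and with scaling to the median, limma without trend and robust, thinned counts or DESeq2; edgeR kept it. Behind these values lay 7 to 189 counts per area, and Rps23 exceeded background in 23 of 24 areas.

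By segment, the Rps23 difference between Gel and Sham was called in Segment 1. There, the 4 Sham areas had 22.4, 30.3, 26.9 and 31.2, the 4 Gel areas 50.9, 55.2, 79.9 and 68.7, and the 4 CuNZ@Gel areas 45.0, 36.8, 31.1 and 44.5. No Gel area overlapped with a Sham area, and the log2 change was 1.16 (SE 0.19, adjusted p = 2.02e-05), the only member called (1.85% of all targets; 6 members at an unadjusted p under 0.05, against 10.2% of all targets). This call held without each of the 6 specimens in turn, and it was lost with limma without trend and robust (adjusted p = 0.203) and with thinned counts (0.226). In Segment 2, Sham areas had 39.9, 41.7, 24.5 and 47.0, Gel areas 46.3, 52.9, 63.4 and 47.0, and CuNZ@Gel areas 21.5, 17.5, 19.1 and 35.4. Here Gel and Sham areas overlapped and the change of 0.47 did not pass (adjusted p = 0.684; 1.56% of all targets and no member called; 1 member at an unadjusted p under 0.05, against 9.09% of all targets). The difference between the segments did not pass its own test either: the interaction was -0.69 (SE 0.30, adjusted p = 0.919). For CuNZ@Gel against Sham the values of Rps23 had opposite signs, 0.49 in Segment 1 (SE 0.19, adjusted p = 0.287) and -0.70 in Segment 2 (SE 0.30, adjusted p = 0.465), and in both segments the areas overlapped. That interaction was -1.19 (SE 0.30, adjusted p = 0.238), the lowest of the 82 members, and it did not pass.

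**Figure D2:**
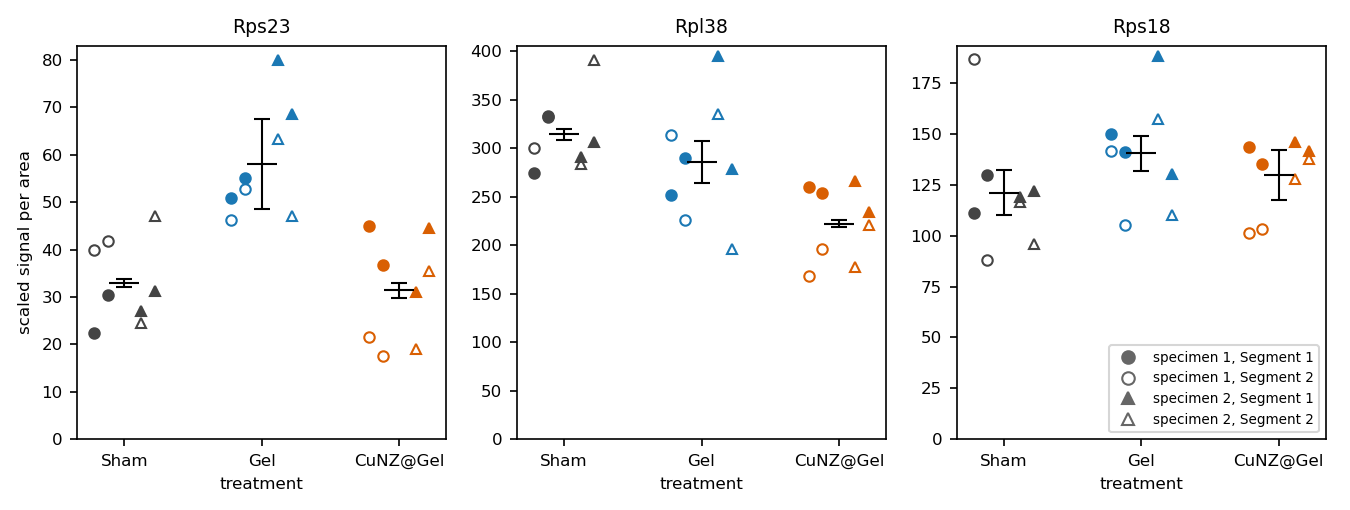
Scaled signal per area of Rps23, Rpl38 and Rps18 by treatment, with circles for specimen 1, triangles for specimen 2, filled symbols for Segment 1 and open symbols for Segment 2; black marks give the mean of the specimens and its SD (n = 2). Gel areas of Rps23 reach 79.9 against a highest Sham area of 47.0, Rpl38 is lowest in CuNZ@Gel, and the groups of Rps18 overlap.

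Rpl6, a large subunit protein, had a log2 change of 0.85 in Gel against Sham (SE 0.28) and did not pass (adjusted p = 0.088). Its Sham areas ran from 3.07 to 12.3 and its Gel areas from 5.92 to 16.0, and it exceeded background in 2 of the 24 areas. It passed without the 2 areas that stand apart (adjusted p = 0.0428) and without Sham specimen 2 (0.0107). The reference genes had log2 changes of 0.22 (Rps18), 0.05 (Rpl13a), 0.20 (Rpsa), -0.09 (Fau) and 0.38 (Rplp0), and none passed.

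The direction of the measured members as a group in this comparison depended on the scaling and on 1 specimen. With the deposited scaling to the 75th percentile the median of the 52 was 0.05. It was 0.38 with quantile normalization (21 members called higher), 0.27 with scaling to the total (4 called higher) and -0.10 with scaling to the median (none called), which set the median of all targets at 0.00, 0.24 and -0.07. It also turned negative with thinned counts (-0.03) and without Gel specimen 2 (-0.08). The distance between the 52 and the 1517 other abundant targets was 0.33 as deposited and 0.37 with quantile normalization. It was 0.34 and 0.33 with scaling to the total and to the median. Those settings multiply each area by a constant and move both sets almost alike, so they could hardly change this distance.

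In CuNZ@Gel against Sham, which sets that gel against the Sham wound, no member passed. limma called 259 targets (1.31%) and 0 of the 82 members, edgeR and DESeq2 also 0, and 6 members had an unadjusted p under 0.05 (10.6% of all targets). The median log2 change was -0.10 over the 52 measured members, with 15 positive and 37 negative, against -0.33 for targets of like level and -0.26 for the 1517 other abundant targets. With quantile normalization and scaling to the total the median of the 52 turned to 0.22 and 0.09, with 5 and 2 members called higher, Rps16 among them under both. Both CuNZ@Gel specimens were above both Sham specimens in 13 members and below them in 23 (all targets: 23.6% and 19.4%). Among the 52 measured members the counts were 5 and 20, while 6.46% and 62.4% of the 1517 other abundant targets lay above and below.

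The largest negative value was that of Rpl38, a large subunit protein known from mouse mutants for its part in the translation of Hox messenger RNAs. Sham areas of Rpl38 had 274, 304 and 390 as lowest, median and highest signal, Gel areas 196, 284 and 395, and CuNZ@Gel areas 169, 228 and 266. Every CuNZ@Gel area was below every Sham area, while Gel spanned both. Mean signal was 314 ± 5.54 in Sham and 222 ± 3.67 in CuNZ@Gel (SD, n = 2). The log2 change was -0.51 (SE 0.18), which did not pass over all targets (adjusted p = 0.163, limma). Whether it passed changed when either Gel specimen was left out. Those specimens do not enter the log2 change itself, but they enter its spread, the degrees of freedom and the adjustment over all targets. Which of these mattered was not tested. The change of Rpl38 passed with 24 areas as samples (adjusted p = 0.00251, limma), a fit that counts areas although the specimen is the replicate. The SD limma used for Rpl38 was 0.176, against 0.054 of its own. The highest values were those of Rpl3l (0.72) and Rpl6 (0.67), both near background. The reference genes had log2 changes of 0.12 (Rps18), -0.11 (Rpl13a), 0.29 (Rpsa), -0.20 (Fau) and 0.32 (Rplp0), and none passed.

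CuNZ@Gel against Gel sets the gels against each other, and it shares the Gel specimens with the first comparison. Rps23 was lower in CuNZ@Gel by a log2 change of -0.92 (SE 0.20, adjusted p = 0.00157), the only member called among 186 targets (0.943%), and 4 members had an unadjusted p under 0.05 (6.7% of all targets). edgeR and DESeq2 did not call it (adjusted p = 0.301 and 0.798), nor did limma without CuNZ@Gel specimen 1 (0.148) or Gel specimen 2 (0.0804). By segment, the change was -0.67 in Segment 1 (adjusted p = 0.0808; 0.76% of all targets and no member called; 2 members at an unadjusted p under 0.05, against 7.4%) and -1.17 in Segment 2 (adjusted p = 0.019; 0.603% called, no other member; 5 members at an unadjusted p under 0.05, against 6.36%), where the call was lost without CuNZ@Gel specimen 1 (0.446), Gel specimen 1 (0.157) or Gel specimen 2 (0.243). Over the 52 measured members the median was -0.11, with 6 positive and 46 negative, against 0.02 for targets of like level. Both CuNZ@Gel specimens were above both Gel specimens in 5 members and below them in 14 (all targets: 15.4% and 17.6%). The reference genes ran from -0.16 (Rpl13a) to 0.09 (Rpsa), and none passed.

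**Figure D3:**
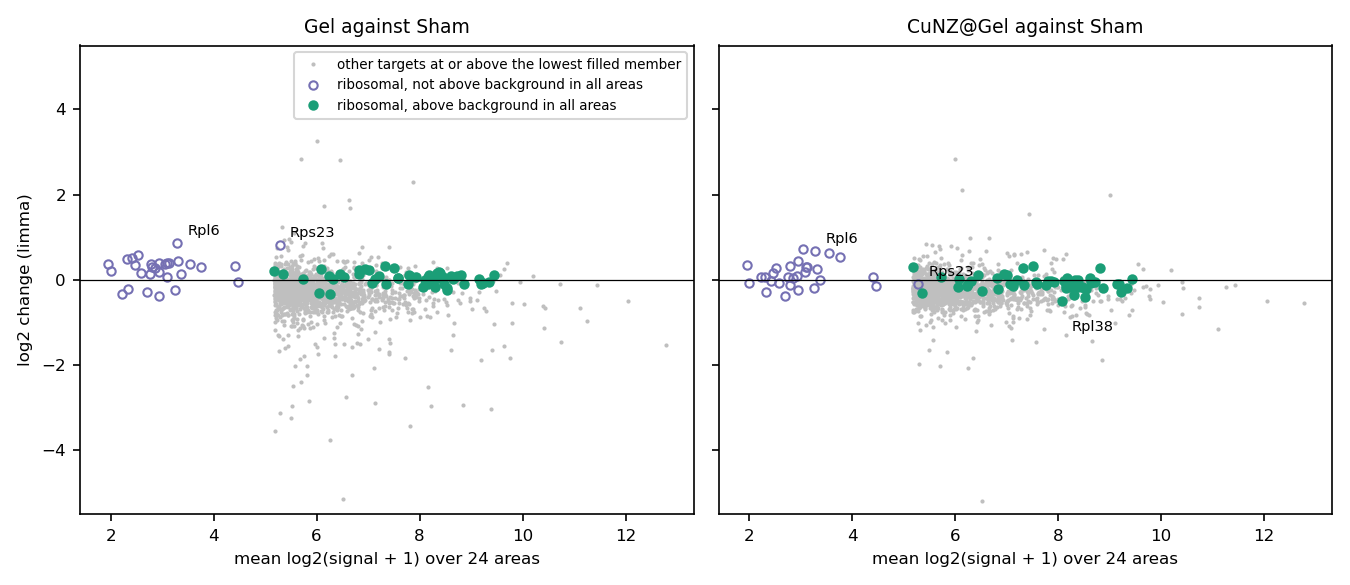
log2 change against mean log2 level for Gel against Sham (left) and CuNZ@Gel against Sham (right); filled circles are the 52 ribosomal protein targets above background in all areas, open circles the other members, and grey points the 1517 other targets at or above the level of the lowest of the 52. The filled circles lie near 0 (medians 0.05 and -0.10) and above most grey points (medians -0.28 and -0.26).

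The share of all signal on the 82 members stood higher in the specimens of both gels than in those of Sham. An exact two-sided test on the specimen shares gave p = 0.333 for each pair of treatments. That is the smallest p possible with 2 specimens in each group, so the test cannot decide whether treatments differ. The members were also chosen with results known. Sham had 3.87% ± 0.065, Gel 4.58% ± 0.289 and CuNZ@Gel 4.15% ± 0.106 (SD, n = 2). The areas ran from 3.59% to 4.12% in Sham, from 3.899% to 5.27% in Gel and from 3.80% to 4.43% in CuNZ@Gel, so they overlapped, while the specimens of the 3 treatments did not. In Segment 1 the means were 3.74% (Sham), 4.64% (Gel) and 4.32% (CuNZ@Gel). In Segment 2 they were 3.997%, 4.52% and 3.991%, so there CuNZ@Gel was not above Sham. The listed fibroblast markers held 4.42% ± 0.951 (Sham), 2.02% ± 1.10 (Gel) and 3.28% ± 0.0764 (CuNZ@Gel) of the signal. With those markers left out of the total, the share of the members was 4.05% ± 0.106, 4.68% ± 0.345 and 4.29% ± 0.113. The share carries no scaling within an area, but it moves with every other abundant target in the sum.

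**Figure D4:**
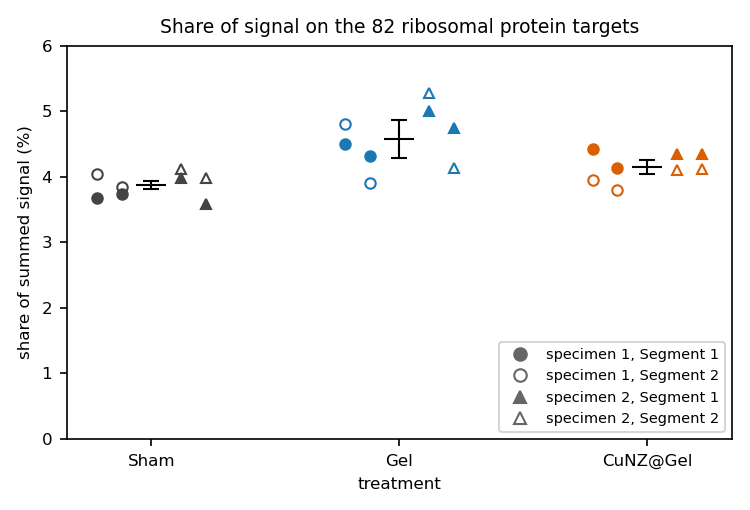
Share of the summed signal on the 82 ribosomal protein targets in each area, in percent, by treatment, with circles for specimen 1, triangles for specimen 2, filled symbols for Segment 1 and open symbols for Segment 2; black marks give the mean of the specimens and its SD (n = 2). Sham areas lie between 3.59% and 4.12% and Gel areas reach 5.27%.

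Segment 2 against Segment 1, within specimens, gave lower values in Segment 2 for 3 members. limma called 499 targets (2.53%) and 3 of the members, Rpl35a and Rpl10 among them, all lower in Segment 2. Of the 1517 other abundant targets 16.7% were called. At an unadjusted p, 30 of the 82 were under 0.05, against 16.2% of all targets. Of the 52 measured members 51 had a negative difference, with a median of -0.13 against -0.20 for targets of like level; 6.46% of the 1517 other abundant targets had a positive difference. Segment 2 had the lower total in every region except Gel specimen 1, region 2 (688520 counts against 481140 in Segment 1). With every area thinned to the counts of the shallowest, the median of the 52 was -0.15 and 1 member was called.

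Rpl35a, a large subunit protein that is mutated in some Diamond-Blackfan anaemia, had signals of 106, 130 and 147 in Segment 1 areas (lowest, median, highest) and 67.5, 98.1 and 141 in Segment 2 areas. The areas overlapped, and Rpl35a was lower in Segment 2 in all 6 specimens, with differences from -0.06 to -0.77 and a mean difference of -0.36 (SE 0.09, adjusted p = 0.00862). It lost its call without Sham specimen 2 (0.102) or Gel specimen 2 (0.198). Rpl10, which joins the large subunit late in its assembly, had 329, 408 and 472 in Segment 1 and 230, 332 and 488 in Segment 2. Its difference was 0.16 in Sham specimen 1 and negative in the other 5, with a mean of -0.23 (SE 0.06, adjusted p = 0.0317), and it lost the call without the 2 areas that stand apart (0.181) and without any specimen but CuNZ@Gel specimen 2. Rps28, a small subunit protein, lay just outside (-0.21, adjusted p = 0.0505). The reference genes had differences of -0.19 (Rps18), -0.10 (Rpl13a), -0.13 (Rpsa), -0.11 (Fau) and 0.13 (Rplp0), and none passed.

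The segment difference was uneven over the treatments, for targets of like level as well. Their medians were -0.02 (Sham), -0.25 (Gel) and -0.27 (CuNZ@Gel), against 0.05, -0.17 and -0.27 for the 52 measured members. Of the 1517 other abundant targets 35.1%, 7.84% and 10.5% had a positive difference, and 1.52%, 4.48% and 4.94% were called. The median over the 52 measured members was 0.10 and 0.00 in the Sham specimens, -0.13 and -0.22 in the Gel specimens and -0.39 and -0.17 in the CuNZ@Gel specimens. In Sham, 0 members were called (0.167% of all targets; 3 members at an unadjusted p under 0.05, against 8.27%), with 38 of the 52 positive, and edgeR and DESeq2 also called 0. In Gel, 0 were called by limma and DESeq2 (0.416% of all targets; 16 at an unadjusted p under 0.05, against 10.4%), with 51 of the 52 negative, and edgeR called 1. In CuNZ@Gel, 3 were called (0.608% of all targets; 36 at an unadjusted p under 0.05, against 9.38%), with all 52 negative. Among these were Rpl35a (-0.67, SE 0.15, adjusted p = 0.00885) and Rpl28, a large subunit protein (-0.43, SE 0.11, adjusted p = 0.0478). Rpl28 lost its call without the 2 areas that stand apart, edgeR and DESeq2 called none of the 3, and 0 were called without CuNZ@Gel specimen 1 against 9 without CuNZ@Gel specimen 2.

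**Figure D5:**
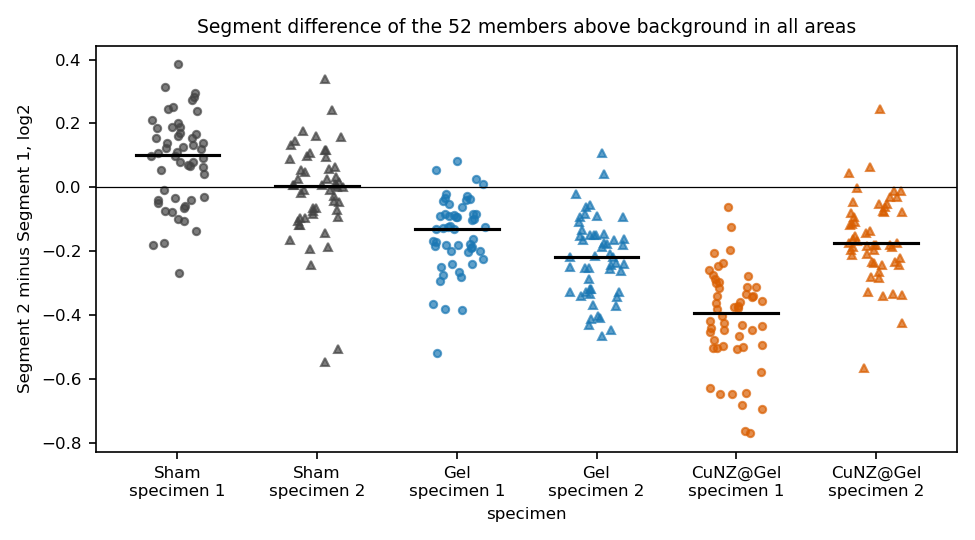
Difference between Segment 2 and Segment 1 in log2 units for the 52 ribosomal protein targets above background in all areas, in each specimen; each point is a target and each line the median. The medians are 0.10 and 0.00 in Sham, -0.13 and -0.22 in Gel, and -0.39 and -0.17 in CuNZ@Gel.

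The difference between treatments in this segment step was tested directly, and no member passed. For CuNZ@Gel against Sham the 52 measured members had a median interaction of -0.32, with 51 negative, against -0.25 for targets of like level. limma called 0 members and 4 targets (0.0203%), and 26 members had an unadjusted p under 0.05 (6.07% of all targets). For Gel against Sham the median was -0.21, with 48 negative, against -0.26 for targets of like level; 0 members and 12 targets (0.0608%) were called, with 9 members at an unadjusted p under 0.05 (5.25% of all targets). For CuNZ@Gel against Gel the median was -0.11, and 0 targets were called, with 1 member at an unadjusted p under 0.05 (5.38% of all targets). edgeR and DESeq2 called 0 members in these 3 tests. Within the segments, CuNZ@Gel against Sham called 0 members in Segment 1 (0.973% of all targets; 7 members at an unadjusted p under 0.05, against 10.7% of all targets) and 0 in Segment 2 (0.588%; 7 members at an unadjusted p under 0.05, against 7.93%); the count tools were not run within segments.

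The segment step also moved with the scaling. Over all 3 treatments the median of the 52 was -0.13 as deposited, -0.02 with scaling to the total, 0.05 with quantile normalization and -0.28 with scaling to the median, with 3, 0, 0 and 34 members called. The median of all targets stood at -0.01, 0.09, 0.01 and -0.13 under the same settings. In Sham the median of 0.05 turned to -0.16 with scaling to the median, and in Gel the median of -0.17 turned to 0.10 with quantile normalization. In CuNZ@Gel it kept its sign, from -0.03 with quantile normalization to -0.27 as deposited.

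Genes around the ribosome were counted from lists. Of 30 ribosome biogenesis genes tested, 0 were called in the 3 treatment comparisons or between the segments by limma, edgeR or DESeq2. The same held for a list of 23 initiation and release factors. That list did not hold the initiation factor genes Eif3e and Eif3f, which were counted with the TOP messenger RNAs below. At an unadjusted p under 0.05 in limma, the biogenesis genes numbered 3 (Gel against Sham), 1 (CuNZ@Gel against Sham), 0 (CuNZ@Gel against Gel) and 7 (between the segments), and the factors 2, 1, 0 and 6. Over all targets that share was 12.1%, 10.6%, 6.7% and 16.2%, and 2.42% were called in Gel against Sham and 2.53% between the segments, which 1 called gene in a list of 20 or 21 does not stand apart from. Of 21 genes of mTORC1 signalling and the S6 kinases, Myc, a transcription factor that drives ribosomal genes, rose in Gel against Sham (0.69, SE 0.20, adjusted p = 0.0343) and was lower in Segment 2 (-0.44, adjusted p = 0.0198). Of 20 TOP messenger RNAs outside the ribosomal proteins, 1 was called in Gel against Sham: Vim, which encodes the filament protein vimentin, fell (-0.67, SE 0.17, adjusted p = 0.0122). Between the segments, 3 of the 20 were lower in Segment 2: Vim (-0.21, adjusted p = 0.00158), Eef2, the translocation factor (-0.21, adjusted p = 0.00925), and Eif3f, a subunit of initiation factor eIF3 (-0.32, adjusted p = 0.0268). Of the 20, 16 were above background and 8 had an unadjusted p under 0.05 in limma. Among the 1517 other abundant targets 16.7% were called in that comparison, a share that 3 of 20 does not stand apart from. The step of Vim was uneven over the treatments: 0.16 in Sham (adjusted p = 0.586), -0.43 in Gel (adjusted p = 0.000517) and -0.37 in CuNZ@Gel (adjusted p = 0.00379). Its interaction passed for Gel against Sham (-0.59, adjusted p = 0.00648) and for CuNZ@Gel against Sham (-0.53, adjusted p = 0.0387). Of 78 mitochondrial ribosomal proteins, Mrps16 fell in Gel against Sham (-0.68, SE 0.20, adjusted p = 0.0347). In the other treatment comparisons and between the segments over all treatments, 0 were called by any of the 3 tools (6, 3 and 9 of 78 at an unadjusted p under 0.05 in limma). Within CuNZ@Gel, limma called 1 of the 78, Mrpl41, lower in Segment 2 (-1.09, SE 0.24, adjusted p = 0.00702), against 0.608% of all targets. edgeR and DESeq2 did not call Myc, Vim or Mrps16 in Gel against Sham; between the segments edgeR called Myc, Eif3f and Eif3e, another eIF3 subunit, all lower in Segment 2, and DESeq2 called no gene of these lists. The medians of those above background in Gel against Sham were -0.07 (10 biogenesis genes), -0.20 (17 initiation and release factors), -0.20 (14 mTORC1 genes), -0.05 (16 TOP messenger RNAs) and -0.18 (38 mitochondrial ribosomal proteins). The medians of the cytosolic members under the same filter came to 0.06 (57 members).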

How the data were processed

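Each file of an area held 1 value per target. The values were deposited as scaled signal; which software, genome build and scaling made them is not given in the sources used here. Their 75th percentile was 12.3 in the median area, within the range of the background (11.4 to 21.6, median 14.3). Scaling to it thus rests on targets near background. How far the changes of members follow the ratio of signal to background in an area was not tested. Between 99.98% and 99.995% of the values of an area were whole multiples of its lowest value within 0.01 of a count, so counts were recovered.

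Tests ran on log2(value + 1); a fold change on this scale comes out too small for low targets. A filter kept the 19728 targets, all 82 members among them, that exceeded the negative probe in 4 areas or more. The 6 specimens, each the mean of its 4 areas, were fitted by lmFit and eBayes (trend and robust) of limma 3.58.1, under R 4.3.3. Segments were compared through the difference between segment means within each specimen, and treatments within a segment in separate fits. The Benjamini-Hochberg adjustment ran over all targets (threshold 0.05), and SEs rest on a spread pooled over targets (133.5 prior against 3 residual degrees of freedom). Nothing says that the specimens are separate animals: p-values measure the spread between these specimens and would be too small if specimens shared an animal. The plan foresaw this test for scaled values; edgeR 4.0.16 and DESeq2 1.42.0 on recovered counts, quantile normalization, scaling to the total or the median, other pseudocounts and filters, thinning to 86386 counts, 24 areas as samples, the replicate block and the omission of each specimen were alternatives. The omission of 2 areas and of fibroblast markers was added after seeing the data. The fits were tested on simulated data.

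Named members were those called, up to 8 per direction and comparison; Rplp0, Rps18, Rpl13a, Rpsa and Fau always; the 5 highest and 5 lowest; those named after another member; and the 5 with the largest spread. Other members were named for values nearest a threshold or at an end of the range. Results of some members that the rule names are not reported here. The members and lists were chosen with earlier results of these data known.

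Specimens with the same number did not deviate together: the correlations over 5554 targets were 0.00370, -0.0315 and -0.0252.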

Additional observations from a re-analysis of the deposited data

Results flagged for a closer look

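Among 27 groups of 8 areas examined (the share of signal, the mean level and 7 members in each treatment), 1 held an area far from the others. Rps18 stood at 187.03 in Sham specimen 1, region 1, Segment 2, and the nearest Sham area at 129.86, so that the gap took 0.579 of the range of the group. Chance alone marks about 1 group in 20 this way.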

How the results depend on the processing

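Counts of members called changed by more than 1.5 times as follows. Gel against Sham (1 as reported) gave 21 with quantile normalization, 4 with scaling to the total, 2 with linear means, with 24 areas as samples and without the 2 areas that stand apart, and 0 with scaling to the median, limma without trend and robust, thinned counts and DESeq2. CuNZ@Gel against Sham (0) gave 5 with quantile normalization and 2 with scaling to the total and 24 areas. CuNZ@Gel against Gel (1) gave 0 with scaling to the median, limma without trend and robust, thinned counts, edgeR and DESeq2. Segment 2 against Segment 1 (3) gave 34 with scaling to the median, 6 with the background filter and with the negative probe subtracted, 1 with thinned counts, and 0 with quantile normalization, scaling to the total, limma without trend and robust, 24 areas and DESeq2. In CuNZ@Gel alone that step (3) gave 9 with thinned counts, 7 with the negative probe subtracted, and 0 with quantile normalization, scaling to the total or the median, limma without trend and robust, edgeR and DESeq2. The treatment by segment tests (0) gave 3 with thinned counts. Leaving out each specimen in turn gave 0 to 1 member in each treatment comparison, 0 to 10 for the segments, 0 to 9 for the segments in CuNZ@Gel and 0 to 2 for treatment by segment. The Gel minus Sham share of signal (0.712 percentage points) became 1.09 with quantile normalization and 1.17 with the negative probe subtracted, and the CuNZ@Gel minus Sham share (0.283) became 0.650 and 0.568. The causes were not tested. The replicate block left 1, 0 and 1 members called between treatments and 2 between the segments, where Rpl10 lost its call (adjusted p = 0.0591). Of the single members followed through these settings (Rps23, Rpl38, Rpl6, Rpl35a and Rpl10), none changed direction. In shallow Segment 2 areas up to 19 members stood at 1 count, which limits the members near background.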
